A study of Mus musculus with 45 samples.

Results

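Unstimulated (M0) bone marrow-derived macrophages of Famin p.254V mice were compared with those of Famin p.254I mice by RNA sequencing, in 10 of the 45 libraries of the series. Members were chosen by genotype and polarization in the sample titles, which gave 5 libraries of p.254V and 5 of p.254I, numbered 1 to 5 in each genotype. The mice, on the C57BL/6N strain, carried Famin (gene symbol Lacc1) engineered to encode valine or isoleucine at residue 254, and the remaining libraries came from another genotype (p.284R) or from cultures polarized toward M1 or M2. Marrow was taken at 6 to 10 weeks of age and cultured for 6 days, per the labels, and the study's methods give M-CSF as the growth factor and leave M0 cells without a polarizing stimulus. The series gives 5 mice per genotype, so an M0 library stood for a mouse, and the methods describe littermates bred from heterozygous parents. Neither the labels nor the methods state what mice with the same number shared.

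FAMIN is an enzyme of purine nucleoside metabolism in macrophages, and C57BL/6 mice natively encode valine at residue 254, the variant that in people marks risk of Crohn's disease. The comparison asked whether the risk and the non-risk residue set different transcriptomes in macrophages at rest. Resting macrophages keep a low tonic output of type I interferon, which signals through the IFNAR receptor, JAK kinases and the STAT and IRF factors to a broad set of antiviral genes. Slc9a9 encodes a sodium-proton exchanger of endosomes, Ccl5 a chemokine induced by viral and inflammatory signals, and Irf7 the transcription factor that amplifies interferon production.

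Total counts ranged from 21465321 to 43740283 over the 10 libraries. Macrophage identity held in all 10, with Csf1r, the M-CSF receptor, at 2382 to 4146 CPM (the count scaled to a common library size after TMM normalization) and Cd68 at 1805 to 2209.6 CPM. The T cell gene Cd8a and the mast cell gene Fcer1a had no count in any of the 10, but other listed markers were counted. Over the 10 libraries, summed T and NK cell genes were at 20.9 to 46.8 CPM and mast cell and basophil genes at 1.10 to 2.92 CPM. Summed fibroblast genes were at 17.1 to 89.6 CPM and osteoclast genes at 103 to 516 CPM. Xist was at 656 to 832 CPM and the sum of 4 Y-linked genes did not exceed 0.0339 CPM. The library of p.254I replicate 4 stood apart. It held 107 genes (0.829% of the 12905 tested) at more than 2-fold, on log2(CPM + 1), above each of the other 9 libraries and 23 genes more than 2-fold below each, against 0 and at most 1 in any other library, and it was the highest of 10 for 2499 genes (19.4%). The edgeR comparison of p.254V with p.254I in M0 was therefore also computed without it. DESeq2, limma-voom, the contrasts in M1 and M2 and the changes of the difference between polarizations were not.

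At the threshold set here, an adjusted p under 0.05, no gene passed between p.254V and p.254I in M0 (0%, edgeR's quasi-likelihood test over the 9 groups of the series, Benjamini-Hochberg adjusted). The unadjusted p was under 0.05 for 231 genes, 61 of them higher in p.254V (0.473%) and 170 lower (1.32%). DESeq2's Wald test called 1 gene, Slc9a9 (0.00775%), with 240 at an unadjusted p under 0.05, and limma-voom called 0, with 74 higher and 74 lower. The excess of lower genes was thus not seen with limma-voom, nor in edgeR on the 10 M0 libraries alone (27 higher and 27 lower). With the replicate number as a block on these 10 libraries it turned, with 206 genes higher (1.7%) and 123 lower (1.01%), and without pair 4 there were 323 (2.64%) and 353 (2.89%), again with 0 called. Without p.254I replicate 4, edgeR again called 0, with 45 genes higher (0.349%) and 43 lower (0.333%) at an unadjusted p under 0.05. Of the 170 lower genes 147 had their highest value in that library, 37 belonged to a list of 50 interferon-stimulated genes and 19 were still at an unadjusted p under 0.05 without it. Of the 61 higher genes 25 were.

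Slc9a9 (ENSMUSG00000031129, mm10 chr9:94669909-95230445, plus strand) split the p.254V libraries. It was at 231, 308 and 127 CPM in p.254V replicates 1, 2 and 3 and at 12.02 and 10.9 CPM in replicates 4 and 5. In p.254I it was at 15.3, 21.7, 15.1, 14.9 and 11.2 CPM in replicates 1 to 5. Thus 3 of 5 p.254V libraries lay above every p.254I library, 1 lay below every one and 1 lay between, so the groups overlapped. The means were 138 ± 132 CPM (SD, n = 5) and 15.6 ± 3.78 CPM (SD, n = 5). The log2 fold change was 3.14 (SE 0.71), with an adjusted p of 0.924 in edgeR and of 0.035 in DESeq2, the 1 call of any tool. The exact permutation test on the mean of log2(CPM + 1), two-sided, gave p = 0.159, or 0.333 after Benjamini-Hochberg adjustment over Slc9a9, Ccl5 and Irf7. The smallest p that 5 against 5 can reach in it is 0.0079. These genes were chosen with results of these data known, and the permutation took no account of the replicate number.

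The same p.254V libraries were high and low after polarization. In M1, p.254V replicates 1 to 3 had 53.5, 69.8 and 35.1 CPM of Slc9a9 and replicates 4 and 5 had 5.25 and 6.00 CPM, with p.254I at 4.89 to 7.40 CPM. In M2 the first 3 had 42.0, 50.3 and 29.6 CPM and the other two 2.41 and 2.43 CPM, with p.254I at 1.81 to 4.24 CPM. Within p.254V the same replicates were thus high or low in each of the 3 polarizations, and the p.254I replicates did not split this way. All 5 M0 libraries of p.284R, at 139.5 to 253 CPM, lay above all 5 of p.254I, and the difference between p.284R and p.254V in M0, 0.45 on the log2 scale (SE 0.64), had an adjusted p of 1 in edgeR. Gm16262 and Gm47168 overlap Slc9a9 on the opposite strand and Mir7656 on the same, and how strand was used in counting is not stated in the sources used here.

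**Figure D1:**
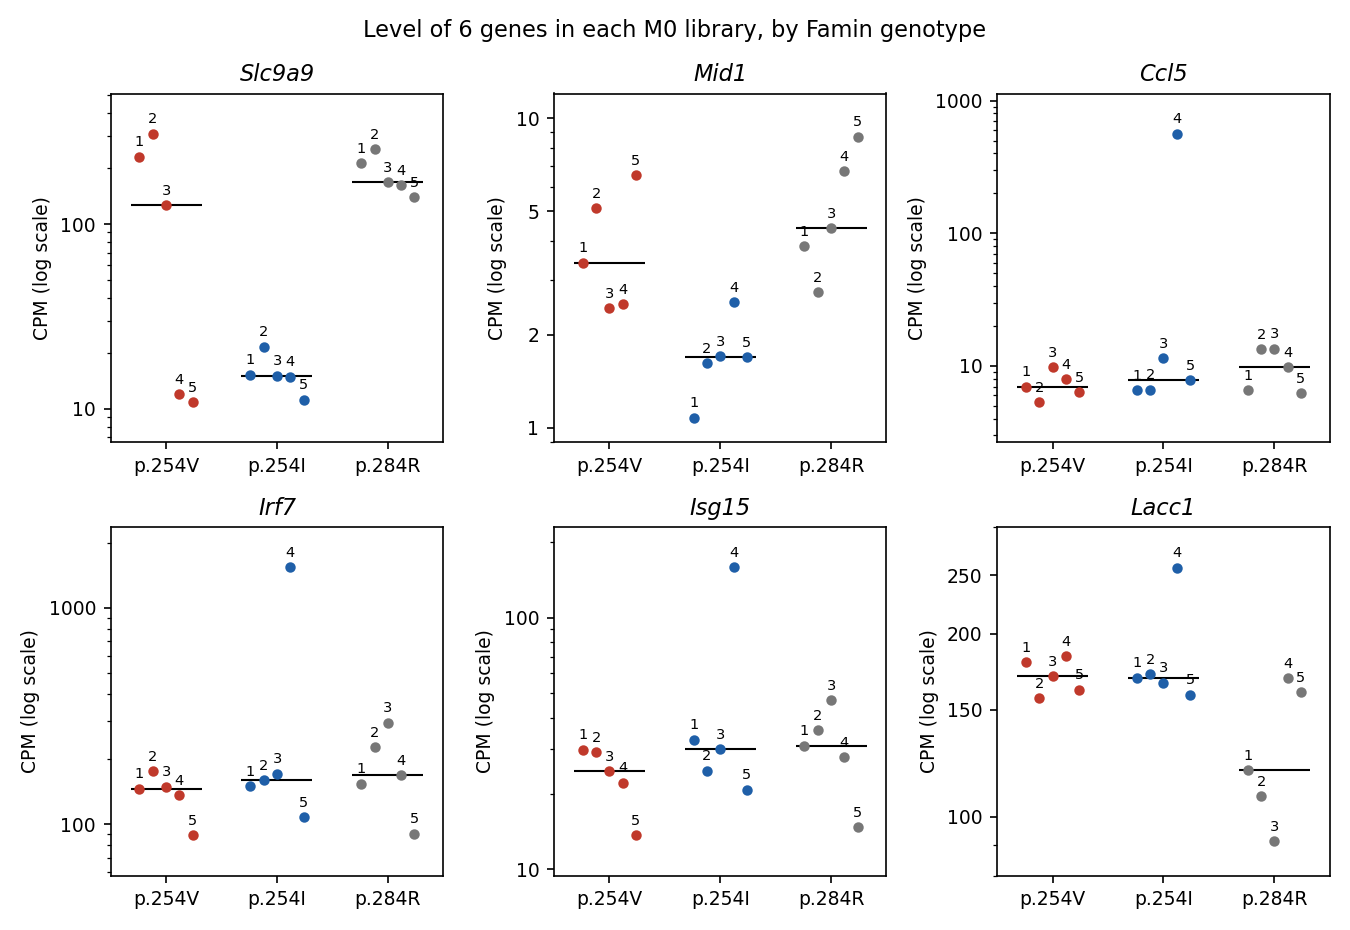
Level of 6 genes in M0 macrophages in CPM (log axis), with 1 point per library, its replicate number above it and a bar at the median of the 5 libraries of each Famin genotype. Slc9a9 was at 127 to 308 CPM in p.254V replicates 1 to 3 and at 10.9 and 12.02 CPM in replicates 4 and 5, and the p.254I replicate 4 library was the highest in Ccl5, Irf7, Isg15 and Lacc1.

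The genes around Slc9a9 gave no such difference between the groups. Within 2 Mb of it 12 of 27 annotated genes were tested, 0 were at an unadjusted p under 0.05 in either direction, and their median log2 fold change was 0.00. The other tested sodium-proton exchangers differed by -0.05 to 0.46 on the log2 scale, and none was at an unadjusted p under 0.05. Slc9a7, which serves the trans-Golgi network, differed by -0.05 (SE 0.23). Of 39 acid-base transport genes tested, Slc9a9 was the 1 at an unadjusted p under 0.05. Over all genes 0.473% were higher and 1.32% lower. In the blocked fit the 1 of 36 was Hvcn1, the proton channel, at 0.18 on the log2 scale, beside 1.7% over all genes. The 19 subunits of the V-ATPase, the pump that acidifies endosomes and lysosomes, had a median log2 fold change of 0.02, beside -0.00 over all 12905 genes.

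Lacc1 (ENSMUSG00000044350, mm10 chr14:77024200-77036904, minus strand), which encodes FAMIN itself, was at 179.7, 157, 171, 184 and 162 CPM in p.254V replicates 1 to 5. In p.254I it was at 169, 172, 166, 257 and 159 CPM. The groups overlapped, with replicate 4 of p.254I above the other 9 libraries, and the log2 fold change was -0.12 (SE 0.23), or 0.03 without that library. Counts per gene do not read the codon of residue 254, so these values do not check the genotype labels. Of 16 genes tested within 2 Mb of Lacc1, 0 were at an unadjusted p under 0.05.

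Mid1, a microtubule-associated ubiquitin ligase on chromosome X (ENSMUSG00000035299, mm10 chrX:169685199-170005736, plus strand), was at 3.42, 5.11, 2.44, 2.51 and 6.55 CPM in p.254V and 1.08, 1.62, 1.71, 2.54 and 1.70 CPM in p.254I. Every p.254V library lay above 4 of the p.254I libraries, and p.254I replicate 4, at 2.54 CPM, lay above 2 of them. The log2 fold change was 1.23 (SE 0.40) (adjusted p of 1 in edgeR), and 1.41 without p.254I replicate 4. In the fit that blocked on replicate number and left out pair 4, Mid1 had the smallest p of all genes, at 1.51 on the log2 scale (adjusted p of 0.105 in edgeR).

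The other genes that ranked high in p.254V by unadjusted p were low in counts. They were Gm20412, Gm7008, Grhl1, E330020D12Rik, Rspo1, Pcdhga12, Gm20522 and Fbxo47, and none exceeded 1.14 CPM in any of the 10 libraries. Rspo1, an enhancer of Wnt signaling, was listed at 0 in all 5 p.254I libraries and reached 0.131 CPM in p.254V. Grhl1, a transcription factor of epithelia, was at 0.263 to 0.643 CPM in p.254V and 0.122 to 0.407 CPM in p.254I, with a log2 fold change of 0.94 (SE 0.31). Several of these genes overlap others, Pcdhga12 with 28 annotated genes, and all had an adjusted p of 1.

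Ccl5 (ENSMUSG00000035042, mm10 chr11:83525778-83530518, minus strand) was at 6.995, 5.36, 9.74, 7.91 and 6.35 CPM in p.254V replicates 1 to 5. In p.254I it was at 6.58, 6.64, 11.4, 563 and 7.83 CPM. A single library thus held the difference, and the other 9 lay within 5.36 to 11.4 CPM. The log2 fold change was -4.04 (SE 1.05, adjusted p of 1 in edgeR and 0.094 in DESeq2), and -0.16 (SE 0.80) without p.254I replicate 4. The exact permutation test, as above, gave p = 0.278, or 0.333 adjusted over the 3 genes.

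Irf7 (ENSMUSG00000025498, mm10 chr7:141262706-141266481, minus strand) was at 146, 175, 149, 136 and 88.6 CPM in p.254V. In p.254I it was at 149.7, 159, 171, 1539.6 and 107 CPM. Outside p.254I replicate 4 the groups overlapped throughout. The log2 fold change was -1.61 (SE 0.57, adjusted p of 1 in edgeR), and -0.08 without that library (exact permutation test with all 10 libraries, p = 0.333, and 0.333 adjusted over the 3 genes). Phrf1 overlaps Irf7 on the opposite strand.

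Interferon-stimulated genes as a list had most of their difference in that same library. All 50 listed were tested, 0 were higher and 37 lower in p.254V at an unadjusted p under 0.05, beside 0.473% and 1.32% over all genes. Without p.254I replicate 4 the counts were 0 and 0, beside 0.349% and 0.333%. With the replicate block they were 0 and 0 of 50, beside 1.7% and 1.01%. Without pair 4 they were 0 and 6, beside 2.64% and 2.89%, so some genes remained lower in that fit. The list's median log2 fold change was -0.60, and -0.11 without p.254I replicate 4, where the median over all genes was -0.00 in both. It was -0.09 in the blocked fit without pair 4. In p.254I replicate 4, 48 of the 50 genes had the highest value of 10 and 41 were more than 2-fold above every other library. Their summed level was 17898 CPM there and 3589 to 6317 CPM in the other 9. What set that library apart was not tested, and in bulk RNA more cells of a type and more RNA per cell cannot be told apart.

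**Figure D2:**
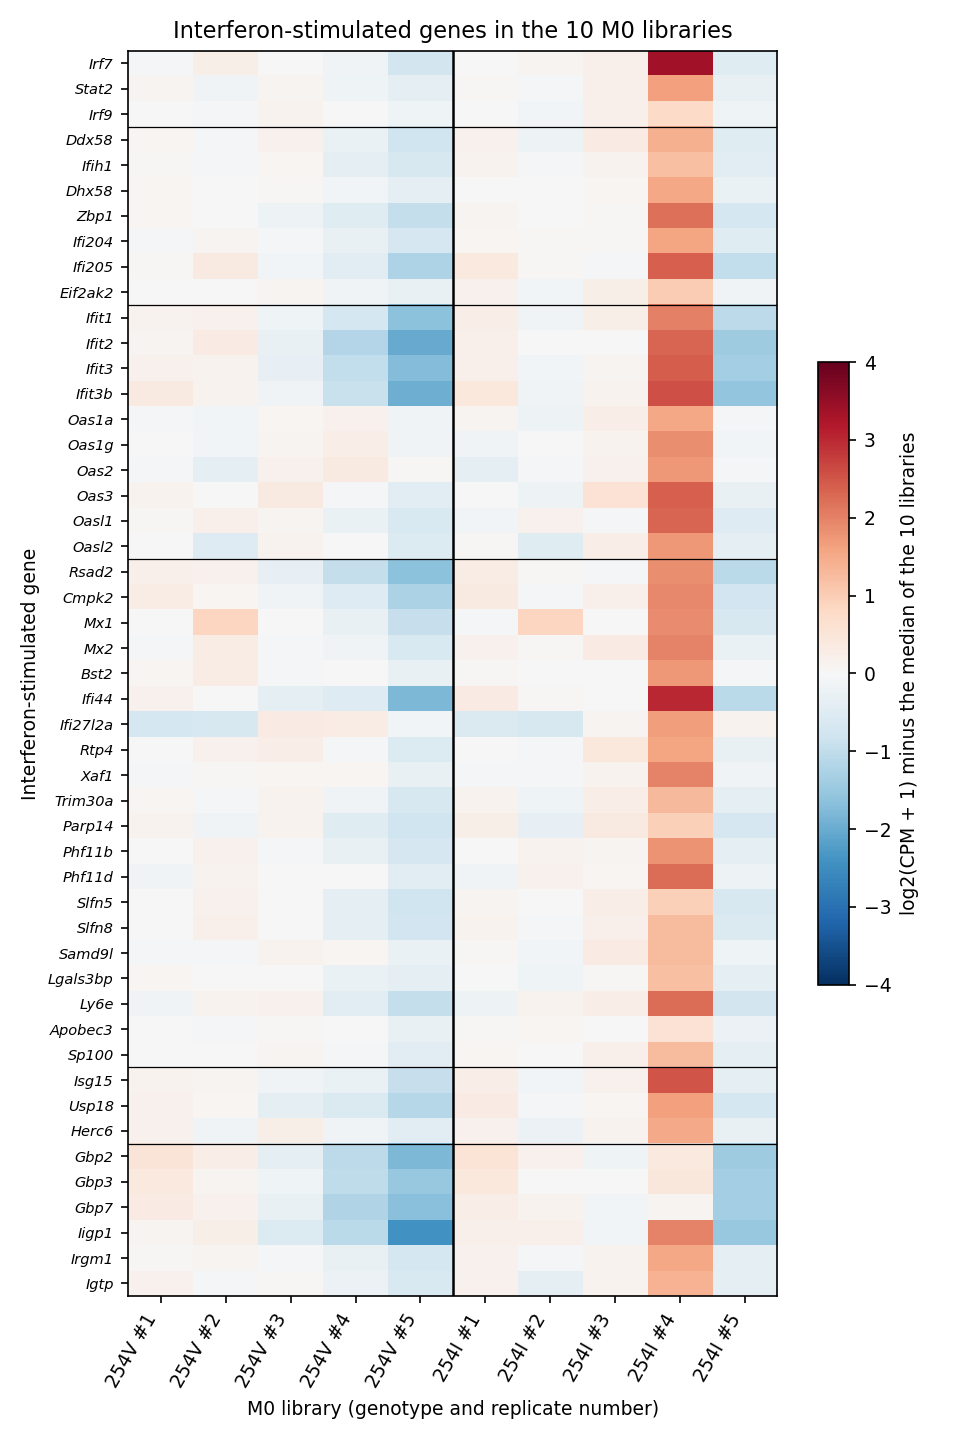
Interferon-stimulated genes in rows, divided by role, and the 10 M0 libraries in columns, colored by log2(CPM + 1) minus the gene's median over the 10 libraries. The column of p.254I replicate 4 was the highest for every gene plotted but Gbp2 and Gbp7, and the columns of replicate 5 were low for most genes in both genotypes.

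Among the transcription factors of the list, Stat2, part of the interferon-activated complex, was at 98.6 to 141 CPM in p.254V and at 134, 127, 149, 408 and 107 CPM in p.254I. Its log2 fold change was -0.60 (SE 0.23), and -0.08 without p.254I replicate 4. Irf9, the DNA-binding part of that complex, reached 135 CPM in p.254I replicate 4 and 69.98 to 92.6 CPM in the other 9 libraries.

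All 7 sensors of foreign nucleic acid on the list were lower in p.254V at an unadjusted p under 0.05, beside 1.32% over all genes. Without p.254I replicate 4, 0 of 7 were so, beside 0.333%. With the replicate block 0 of 7 were lower, and 2 without pair 4, beside 1.01% and 2.89%. Ddx58, which encodes RIG-I, was at 244 CPM in p.254I replicate 4 and 52.2 to 115 CPM in the others. Zbp1, a sensor of Z-form nucleic acid, was at 184 CPM there and 19.5 to 42.3 CPM in the others, with a log2 fold change of -1.04 (SE 0.33), or -0.18 without the library. It was the 1 list gene among the 10 lower genes with the smallest p. The rest of these 10 were Gbp6, Ccl5, Icam4, Tgtp2, Slfn1, Ms4a4c, Saa3, Slfn4 and Gm26711.

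Of 10 genes that act on RNA or its translation, 8 were lower at an unadjusted p under 0.05, beside 1.32% over all genes. Without p.254I replicate 4, 0 of 10 were lower, beside 0.333%. With the replicate block 0 of 10 were lower, and 1 without pair 4, beside 1.01% and 2.89%. Ifit3, of a family that binds viral RNA, was at 76.5, 75.4, 54.1, 34.3 and 19.99 CPM in p.254V and at 78.4, 63.4, 73.4, 369 and 26.2 CPM in p.254I. Oas3, which makes the second messenger that activates RNase L, was at 101 to 177 CPM in p.254V and at 139, 119, 206, 729 and 112 CPM in p.254I. In both genes replicate 4 of p.254I lay far above the other 9 libraries, and replicate 5 was the lowest of its genotype. Isg15, the ubiquitin-like modifier, was at 29.8, 29.3, 24.5, 22.1 and 13.6 CPM in p.254V and at 32.7, 24.6, 30.1, 158 and 20.7 CPM in p.254I. Its log2 fold change was -1.16 (SE 0.44), and -0.18 without p.254I replicate 4.

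Promoters of these genes are shown as a description of sequence only. The interferon-stimulated response element carries the core GAAANNGAAA, which reads TTTCNNTTTC on the other strand. In RefSeq promoters of GRCm38.p6 (250 bases before to 50 after the start), 1131 of 32851 (3.44%) held the core on either strand, overlapping matches allowed. Of the 50 listed genes 37 had a promoter in that table, and 24 of the 37 (64.9%) held it in at least 1 promoter, beside 4.05% of the 10035 genes tested that had one. The 180 bases before the start are printed 5′ to 3′ on the gene's strand, with the core in capitals, for Isg15 (chr4:156200819-156200998, minus strand), Ifit1 (chr19:34640709-34640888, plus strand), Ifit3 (chr19:34583349-34583528, plus strand) and Oas3 (chr5:120777660-120777839, minus strand).
Isg15: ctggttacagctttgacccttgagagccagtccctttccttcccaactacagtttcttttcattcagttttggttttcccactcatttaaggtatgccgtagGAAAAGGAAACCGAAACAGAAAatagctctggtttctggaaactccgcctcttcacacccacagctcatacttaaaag
Ifit1: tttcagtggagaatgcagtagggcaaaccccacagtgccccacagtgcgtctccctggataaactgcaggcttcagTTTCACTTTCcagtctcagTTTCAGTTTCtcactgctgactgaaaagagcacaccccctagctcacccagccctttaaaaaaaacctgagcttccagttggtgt
Ifit3: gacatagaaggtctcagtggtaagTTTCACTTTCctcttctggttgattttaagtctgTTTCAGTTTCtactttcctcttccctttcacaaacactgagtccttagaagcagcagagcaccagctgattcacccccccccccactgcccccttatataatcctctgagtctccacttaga
Oas3: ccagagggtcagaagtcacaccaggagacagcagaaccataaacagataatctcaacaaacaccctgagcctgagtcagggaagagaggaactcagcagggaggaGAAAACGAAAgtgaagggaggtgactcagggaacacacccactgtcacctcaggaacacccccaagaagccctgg

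The Isg15 window held 3 overlapping matches between 78 and 57 bases before the start. Ifit1 held 2, Ifit3 held 2 and Oas3 held 1. These genes were picked for printing because their windows held the core. Of the 107 genes that stood above every other library in p.254I replicate 4, 79 had a promoter in the table and 34 of them (43.0%) held the core. The 107 include 41 of the listed interferon-stimulated genes, so this share is not independent of the share given for the list. Of the 23 that stood below, 9 had a promoter and 0 held it. The promoter windows of Irf7 and Slfn1 did not contain these letters, and a match is a description of the sequence, not evidence of binding.

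The GTPases of the list differed among themselves in that library. Iigp1, which attacks pathogen vacuoles, was at 77.6 CPM in p.254I replicate 4 and 2.68 to 22.3 CPM in the other 9. Gbp2 and Gbp7, guanylate-binding proteins, were the 2 of 50 listed genes that were not highest there, and they were named after their values were seen. Gbp2 was at 98.6 CPM in it and reached 111 CPM in replicate 1 of p.254I and 109 CPM in replicate 1 of p.254V. The chemokines Cxcl9 and Cxcl10 did not stand apart either, with Cxcl10 at 14.9 CPM there and 3.24 to 22.4 CPM elsewhere.

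Genes further up the interferon pathway gave smaller differences. Of 28 tested, 0 were higher and 1 was lower at an unadjusted p under 0.05, beside 0.473% and 1.32% over all genes. In p.254I replicate 4, 0 of 28 were more than 2-fold above all others, beside 0.829%. The receptor subunits Ifnar1 and Ifnar2 had log2 fold changes of -0.01 (SE 0.06) and -0.03 (SE 0.08). Tlr4, the lipopolysaccharide receptor, was the 1 gene lower, by -0.17 (SE 0.08), and it was at 209 CPM in p.254I replicate 4 and 131 to 178 CPM in the others. Ifng was at 0 in all 10 libraries, and Ifnb1, Ifna2 and Ifna4 were not analysed here.

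The p.254I replicate 4 library also stood apart after polarization in part of these genes. In M2, Ccl5 was at 288 CPM in p.254I replicate 4 and 5.17 to 15.7 CPM in the other 9 libraries of p.254V and p.254I. Irf7 was at 289 CPM against 20.3 to 67.9 CPM, and Saa3, an acute phase protein, at 134 CPM against 1.94 to 5.48 CPM. In M1, where the pathway is stimulated, Irf7 was at 2058 CPM against 1196 to 2583 CPM, inside the range of the others. Saa3 in M1 was at 195 CPM against 9.12 to 80.2 CPM. The summed level of the 50 interferon-stimulated genes in M2 was 5791 CPM in that library and 2318 to 3104 CPM in the other 9, and in M1 it was 40627 CPM, within 32496 to 41049 CPM of the other 9.

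**Figure D3:**
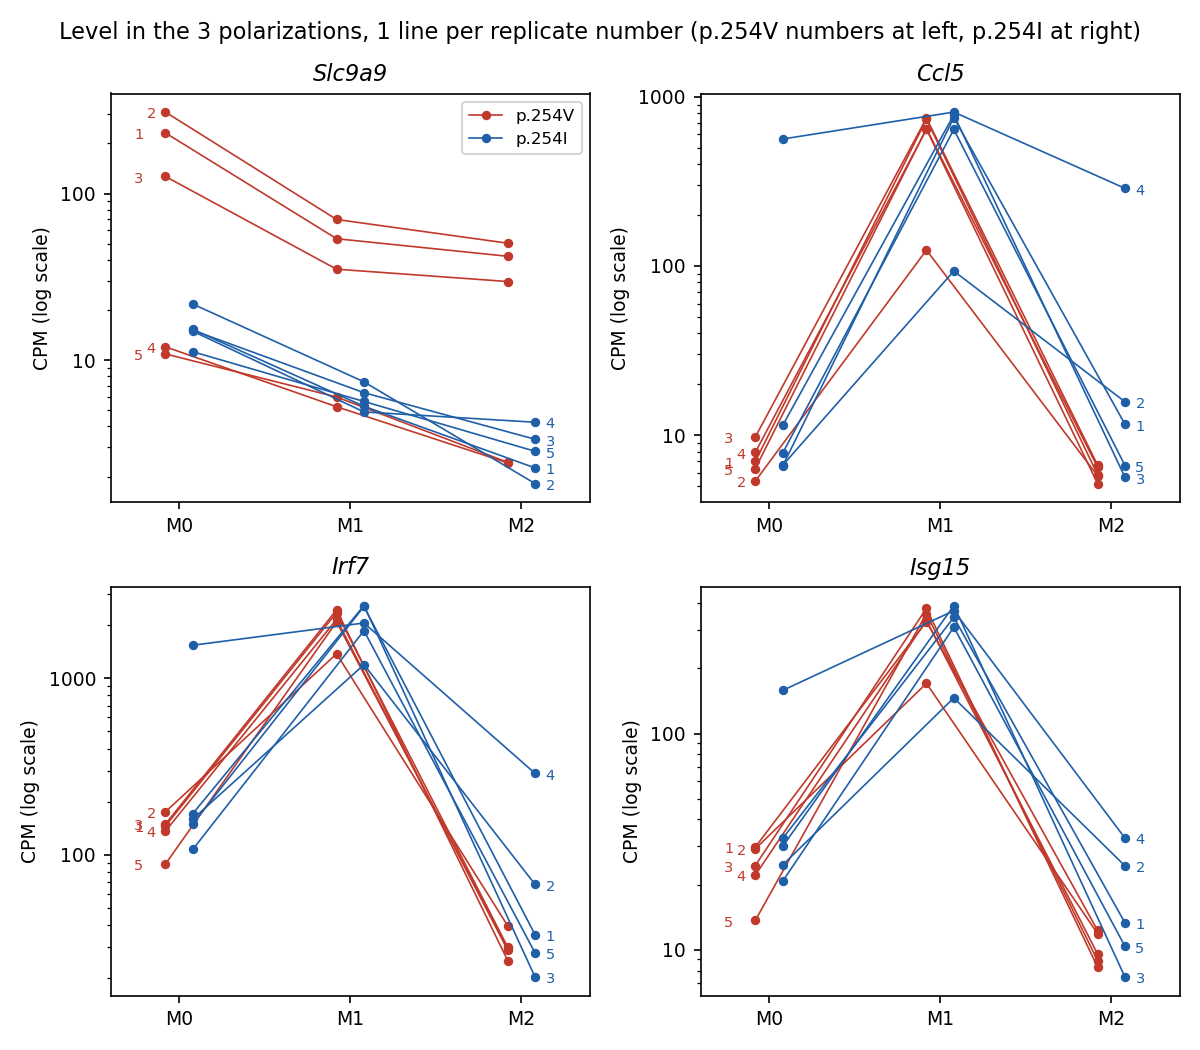
Slc9a9, Ccl5, Irf7 and Isg15 in M0, M1 and M2 macrophages in CPM (log axis), with 1 line per replicate number of p.254V (numbers at left) and p.254I (numbers at right). Slc9a9 stayed high in p.254V replicates 1 to 3 and low in 4 and 5, and p.254I replicate 4 lay above the other 9 in M0 and M2 for Ccl5 and Irf7.

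Genes most above the other 9 libraries in p.254I replicate 4 in M0 included Saa3 at 170 CPM (2.43 to 7.50 CPM in the others), Ms4a4c at 129 CPM (3.24 to 13.95 CPM) and Ly6a, a surface antigen that interferon induces, at 82.7 CPM (2.07 to 11.6 CPM). Slfn1 and Slfn4 of the Schlafen family were at 72.0 and 80.1 CPM, where no other library exceeded 8.19 and 9.41 CPM. Those most below included Itgax, which encodes CD11c, at 39.3 CPM (126 to 281 CPM in the others) and Mmp12, macrophage elastase, at 579 CPM (1526 to 3284 CPM). Dcstamp, needed for macrophage fusion, was at 8.60 CPM against 21.7 to 39.8 CPM, and Egr2 at 14.1 CPM against 37.6 to 71.2 CPM. These genes were named by their distance from the other libraries, so no test was made of them. Itgax, Mmp12 and Dcstamp were again lowest in p.254I replicate 4 in M2, at 1312, 2950 and 72.4 CPM. Egr2 was not, at 409 CPM there and 359 to 497 CPM in the other 9 libraries of p.254V and p.254I.

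**Figure D4:**
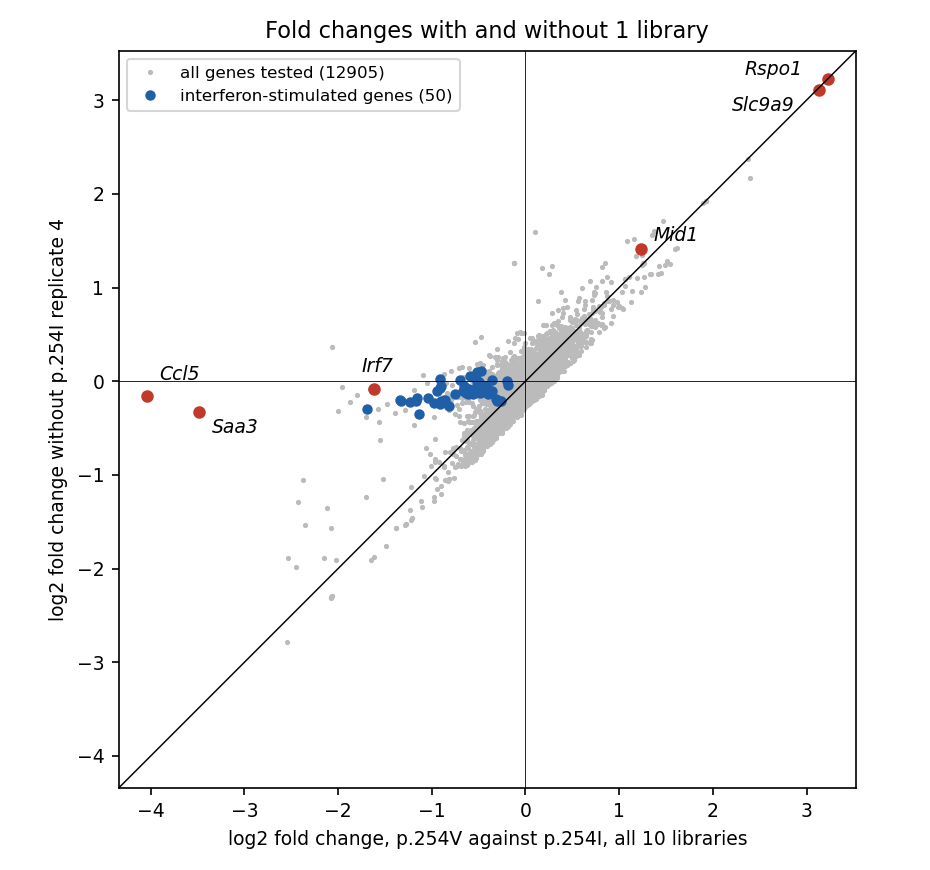
Log2 fold change of p.254V against p.254I in M0 for 12905 genes, with all 10 libraries (x axis) and without p.254I replicate 4 (y axis), the diagonal marking equal values. The 50 interferon-stimulated genes (blue) left the diagonal toward 0, their median going from -0.60 to -0.11, while Slc9a9 and Mid1 stayed near it at 3.14 and 3.11, and 1.23 and 1.41.

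Among genes of metabolism, few differed at an unadjusted p under 0.05 and none after adjustment. Of 28 purine enzyme genes tested, 0 were higher and 2 lower at an unadjusted p under 0.05, beside 0.473% and 1.32% over all genes. Without p.254I replicate 4 they were 0 and 0, beside 0.349% and 0.333%. Blocked on replicate number they were 0 and 0 of 28, beside 1.7% and 1.01%. Without pair 4 they were 1 and 5, beside 2.64% and 2.89%. The 2 first counted were Dck, a salvage kinase, and Nt5c3, a nucleotidase. They were at 214 and 67.7 CPM in p.254I replicate 4 and did not exceed 107 and 35.5 CPM in the others. Genes of the purine nucleotide cycle stayed close, with Ampd2 at 0.07 (SE 0.06), Adss at 0.04 (SE 0.08) and Adsl at 0.02 (SE 0.08) on the log2 scale. Fatty acid synthesis and oxidation (19 tested), glycolysis (18) and the fumarate and electron shuttle genes (16) each had 0 genes at an unadjusted p under 0.05, with medians of -0.01, 0.04 and -0.00.

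Antigen presentation parted by class in p.254I replicate 4. Of 12 genes of MHC class I and its loading, 3 were lower at an unadjusted p under 0.05, namely H2-T23, B2m and Tap1. Over all genes 1.32% were lower. Without p.254I replicate 4, 0 of 12 were lower and their median log2 fold change was -0.01. In that library 11 of 12 had their highest value, beside 19.4% over all genes. B2m, the light chain of class I, was at 5056 CPM in that library and 2265 to 2974 CPM in the others. Of 7 class II genes, including the master regulator Ciita, 0 were at an unadjusted p under 0.05 and 0 were highest there. Cd74, the invariant chain, was at 687, 475, 573, 392.5 and 289.5 CPM in p.254V and at 663, 431, 533, 360.0 and 250.3 CPM in p.254I, so its level went with the replicate number and was higher in p.254V in all 5 pairs. With the replicate block the log2 fold change of Cd74 was 0.12 (SE 0.04, adjusted p of 0.998 in edgeR). In that fit 1 of the 7 class II genes was higher at an unadjusted p under 0.05, beside 1.7% over all genes. Without pair 4, 2 were higher, beside 2.64%. In both fits 0 of 12 class I genes were lower, beside 1.01% and 2.89%.

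**Figure D5:**
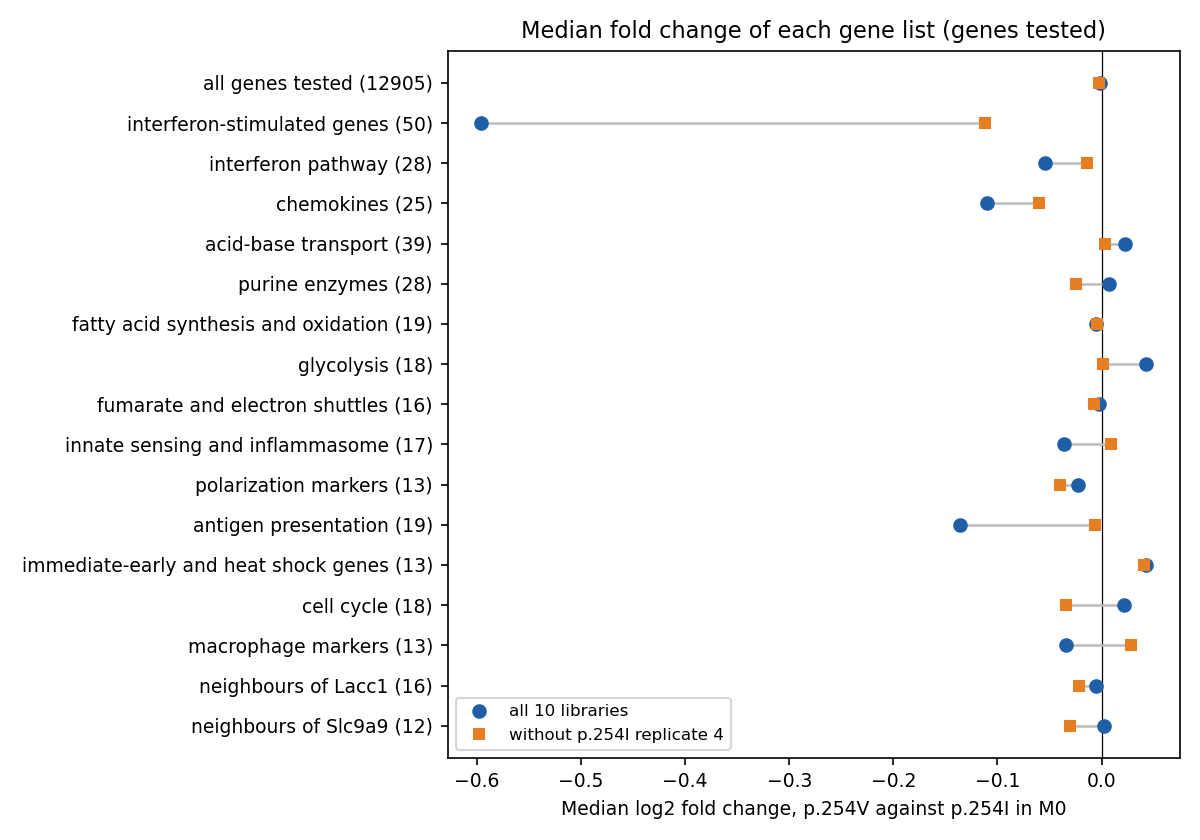
Median log2 fold change of p.254V against p.254I in M0 for gene lists, over all 10 libraries (circles) and without p.254I replicate 4 (squares). The number of genes tested is in parentheses. Not plotted were sex-linked genes, markers of other cell types, the study's genotype genes and the markers of the comparison. Markers of other cell types had a median of -0.21, and -0.31 without p.254I replicate 4. The interferon-stimulated genes moved from -0.60 to -0.11 and antigen presentation from -0.14 to -0.01, while the other lists plotted stayed within -0.11 and 0.04.

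Differences between replicate numbers recurred in both genotypes. Of the 50 interferon-stimulated genes, 48 were lowest in replicate 5 within p.254V and 45 within p.254I. Compared number by number, the median log2 difference of the list, p.254V minus p.254I, was -0.05, 0.09, -0.15, -1.76 and -0.23 in pairs 1 to 5, and 35, 9, 45, 50 and 49 of the 50 genes were lower in p.254V. So outside pair 4 the list lay lower in p.254V in 3 pairs and higher in 1, by at most 0.23. Among markers of other cell types, neutrophil genes were highest in replicate 2 and lowest in replicate 5 of each genotype. Summed fibroblast genes peaked at different numbers, in replicate 3 of p.254V (59.2 CPM) and replicate 1 of p.254I (89.6 CPM). All 4 fibroblast genes tested were lower in p.254V, with a median log2 fold change of -0.43, or -0.62 without p.254I replicate 4. Of them, 0 were at an unadjusted p under 0.05. Summed neutrophil genes were at 115, 235, 89.5, 66.9 and 50.03 CPM in p.254V replicates 1 to 5 and 159, 303, 83.5, 107 and 31.5 CPM in p.254I, with 0 of 9 tested at an unadjusted p under 0.05. Summed proliferation genes were at 864, 789, 1015, 1230 and 1358 CPM in p.254V and 921, 941, 907, 901.5 and 1521 CPM in p.254I, highest in replicate 5 of each. Whether these cells or states bear on the differences named above was not tested.

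Chemokine genes gave counts that depended on the pairing. Of 25 chemokine and receptor genes tested, 0 were higher and 2 lower at an unadjusted p under 0.05. The shares over all genes were 0.473% and 1.32%. Without p.254I replicate 4 the counts were 0 and 0, beside 0.349% and 0.333%. With the replicate block 0 were higher and 3 lower of 23 (Ccl4, Ccl12 and the receptor Ccr2), beside 1.7% and 1.01% over all genes. Without pair 4, 0 were higher and 5 lower (Ccl3, Ccl4, Ccl9, Ccl12 and Ccl22), beside 2.64% and 2.89%, and none had an adjusted p under 0.05. Ccl4, an attractant of macrophages and lymphocytes, differed by -0.30 (SE 0.09) with the block and -0.22 without pair 4. The second of the 2 lower genes above was Ccl12, at 0.829 to 1.22 CPM in p.254V and at 2.16, 1.09, 0.569, 3.56 and 2.0005 CPM in p.254I. Ccl2, a monocyte attractant, was at 19.1 to 71.7 CPM in p.254V and 19.6 to 118 CPM in p.254I, and Cx3cr1 at 5.22 to 39.6 and 6.60 to 34.0 CPM, and in both genes the groups overlapped. Of 13 markers of M1 or M2 polarization tested, 0 were at an unadjusted p under 0.05. Nos2, the inducible nitric oxide synthase of M1 cells, was at no more than 0.156 CPM and Arg1, the arginase of M2 cells, at no more than 0.719 CPM.

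The study listed 35 genes that differed by Famin genotype over its cultures, of which 34 could be tested. It named Slc9a9, Mid1 and Rap1gap as different between p.254V and p.254I, and the rest between p.284R and p.254I. Its calls came from limma-voom and M0, M1 and M2 macrophages, whereas the counts here are of edgeR in M0. In M0, these 3 (Slc9a9, Mid1 and Rap1gap) were higher in p.254V at an unadjusted p under 0.05. Of the list, 2 were lower (Cd69 and the complement factor Cfb), and 0 had an adjusted p under 0.05. The list was chosen on these same libraries, so it is not independent evidence of direction. Rap1gap, an inactivator of the GTPase Rap1, was at 2.92, 1.66, 2.03, 2.44 and 2.80 CPM in p.254V and 1.44, 1.42, 1.62, 2.27 and 0.949 CPM in p.254I, a log2 fold change of 0.64 (SE 0.27), or 0.82 without p.254I replicate 4. Cfb was at 2.66 CPM in p.254I replicate 4 and at no more than 0.276 CPM in the other 9, so the higher 3 remained without that library and the lower 2 did not. Over all genes 0.473% were higher and 1.32% lower in the fit reported. With the replicate block 2 were higher and 2 lower of 23, beside 1.7% and 1.01% over all genes. Without pair 4 they were 4 and 1, beside 2.64% and 2.89%.

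Few genes had groups that did not overlap at all. In 7 genes every p.254V library lay above every p.254I library (0.0542%) and in 10 every one lay below (0.0775%), which is the background against which single genes are read. The 7 were 2810021J22Rik, Gstz1, Gas2, E330020D12Rik, Gm16897, Gm17518 and Pcdhga12. Gas2, a cytoskeletal protein, was at 2.53, 3.66, 3.25, 2.85 and 3.21 CPM in p.254V and 2.44, 2.51, 2.32, 1.33 and 2.48 CPM in p.254I, a log2 fold change of 0.48 (SE 0.19). Gstz1, an enzyme of tyrosine breakdown, was at 17.9 to 21.1 CPM against 15.4 to 17.8 CPM, a log2 fold change of 0.18 (SE 0.09). The 10 included Icam4, Cpsf2, Chchd7, Rbm12b1, Akap10, Gm13822, Gm16576, Gm20496 and Gm26910, and all 17 had an adjusted p of 1 in edgeR. Icam4, an adhesion molecule best known from red cells, was at 0.0328, 0.242, 0.180, 0.170 and 0.270 CPM in p.254V and 0.324, 0.429, 0.447, 0.548 and 0.441 CPM in p.254I, a log2 fold change of -1.22 (SE 0.35), or -1.13 without p.254I replicate 4.

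The M0 difference was also set beside the same contrast after polarization. Between p.254V and p.254I, 0 genes were called in M1 and 0 in M2, with 120 and 329 at an unadjusted p under 0.05 (edgeR). Whether the difference itself changed between M0 and M1, or between M0 and M2, was tested as an interaction, which called 0 genes in each, with 111 and 167 at an unadjusted p under 0.05. With the mouse as a random block, since 5 mice per genotype gave the cultures of all 3 polarizations, it again called 0, with 137 and 320. For Irf7 the change of the difference from M0 to M1 was 1.64 (SE 0.79) and for Ccl5 it was 3.95 (SE 1.36), both with an adjusted p of 1, and p.254I replicate 4 decided the M0 value of each.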

How the data were processed

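Poly(A) RNA libraries of bone marrow-derived macrophages were read as single ends of 50 bases, 11 libraries to a lane. The authors deposited raw counts per Ensembl gene for 29307 genes, without normalization. The study's methods name TrimGalore, HISAT2, mm10 and a HiSeq3000, and the series description Cutadapt, STAR and a HiSeq4000, so the aligner is uncertain, and the counting tool, its annotation and its use of strand are not given in the sources used here. A table of CPM was not used. Symbols and positions came from GENCODE M21, which matched 29146 identifiers, and promoters from RefSeq.

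Groups were taken from the sample titles. All 45 libraries entered a fit of 9 groups in edgeR 4.0.16 (R 4.3.3, filterByExpr, TMM, quasi-likelihood test with robust estimation, Benjamini-Hochberg adjustment over 12905 genes), which was tested on simulated data. Fold changes are p.254V over p.254I, and CPM used TMM-scaled library sizes. limma 3.58.1 and DESeq2 1.42.0 were alternatives. Same-numbered p.254V and p.254I libraries deviated together from their group means (correlations of 0.72, 0.61, 0.62, 0.27 and 0.86 in pairs 1 to 5, over 9522 genes), so the numbers were taken to pair the libraries, although in pair 4 the correlation with another number was higher (0.66). The pairing comes from the data, as the labels do not state it. Genes named were the 3 markers, Lacc1, genes called by this fit or by the one with a replicate block, the 10 higher and the 10 lower genes with the smallest p, and members of lists, and any others were chosen after their values were seen. A few list members are counted but not reported here by name. The members and lists were chosen with earlier results of these data known.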

Additional observations from a re-analysis of the deposited data

Results flagged for a closer look

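In 74 groups of 5 M0 libraries (genes named above and summed lists) the gap of an extreme library to its nearest neighbor was divided by the group's range, and 15 groups passed Dixon's critical value of 0.71. Chance flags about 1 in 20 groups, but these groups share libraries. Many of the genes were also included as markers of the comparison or for a small p that p.254I replicate 4 gave them. The count of 15 therefore cannot be read against that rate. In p.254I replicate 4 the highest value stood out for Ccl5 (0.991), Saa3 (0.971), Irf7 (0.955), Ms4a4c (0.929), Slfn4 (0.919), Slfn1 (0.915), Zbp1 (0.883), Lacc1 (0.867), Tgtp2 (0.856), Gbp6 (0.782) and the summed interferon-stimulated genes (0.837). In p.254I replicate 5 the highest value stood out for summed cell cycle genes (0.937, at 1521.5 CPM against 901.5 to 941 CPM) and summed glycolysis genes (0.767, at 4157.5 CPM against 3444 to 3609.7 CPM). In p.254I replicate 3 the lowest value stood out for summed polarization markers (0.785), at 766 CPM. In p.254V replicate 1 the highest value stood out for Rspo1 (0.737), at 0.131 CPM. What lies behind these values was not tested.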

How the results depend on the processing

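Over the alternatives run, the count of genes called between p.254V and p.254I in M0 was 0 except with DESeq2's Wald test, which called 1, Slc9a9 (log2 fold change 3.14, adjusted p 0.035). The adjusted p of Slc9a9 ranged from 0.125 to 1 over the other alternatives. Leaving out each library in turn gave 0 calls each time, 88 to 439 genes at an unadjusted p under 0.05, and log2 fold changes of 2.60 to 3.42 for Slc9a9, -4.35 to -0.16 for Ccl5 and -1.87 to -0.08 for Irf7, where p.254I replicate 4 left out gave 3.11, -0.16 and -0.08. Lacc1 turned from -0.12 to 0.0341 without p.254I replicate 4, to 0.0340 in the fit of only the 10 M0 libraries without it and to 0.0012 in the fit with the replicate block without pair 4. The number at an unadjusted p under 0.05 was 231 in the fit reported and 54 with only the 10 M0 libraries (55 without p.254I replicate 4), 111 with the 15 M0 libraries, 148 with limma-voom and 425 without the filter on low counts. It was 398 without p.254I replicate 2, 88 without replicate 4 and 439 without replicate 5. With the replicate block, the pairing found in the data, there were 329 such genes on the 10 M0 libraries, 515 in the 9-group fit, 373 with limma-voom and 676 without pair 4. It changed no call of edgeR or limma-voom, and the log2 fold change of Slc9a9 was 2.27 with the block on the 10 M0 libraries. The cause of these changes was not tested.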
